A study of Mus musculus with 2084 samples.

Results

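Quiescent neural stem cells labelled qNSC1 were described from the ventricular-subventricular zone (vSVZ), the stem cell niche along the lateral ventricles, of wild-type (WT) mice without treatment (labelled naive). Members were all cells whose label gave cell type qNSC1, genotype WT and treatment naive, with a replicate letter from pA to pE; 118 such cells were in the count table, out of 485 WT naive cells of the same letters and 2084 labelled cells in the series. The other cells of these letters were 50 qNSC2 (a second quiescent state), 80 aNSC (activated stem cells), 88 TAP (transit amplifying progenitors), 79 neuroblasts, 58 oligodendrocytes and 12 striatal astrocytes. RNA of each cell had been read by Smart-seq3, a full-length single-cell method, next to the methylome and chromatin of the same cell. No allele, tamoxifen or ischemia applied to any of these cells, and the age of the WT mice is not given in the labels. The tissue label was vSVZ for pA to pD and striatum plus vSVZ for pE. Each letter stood for 1 biological replicate of 1 or more mice, so the letters, and not the cells, were treated as replicates. The title of each cell also carried a sort gate: qNSC1 cells came from ASTRO (6, 4 and 4 cells in pA, pB and pC), NSC (7, 7, 13 and 12 cells in pA, pB, pC and pE), NSC-B (8 cells in pE) and GLAST (57 cells in pD). The labels name the sort antibodies for all conditions together and do not say which of them defined which gate.

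Neural stem cells of the adult vSVZ are glia with many traits of astrocytes: they take up glutamate, buffer potassium and couple through gap junctions. Most of them rest outside the cell cycle; when activated they gain EGF receptor, build ribosomes, divide and pass through transit amplifying progenitors to neuroblasts that migrate to the olfactory bulb. Notch and BMP signals, through the Hes, Hey and Id transcription factors, are known to hold stem cells of this niche in quiescence.

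Depth differed between letters. A qNSC1 cell had 8606 to 1773244 counts, with a median of 159390.5, and 2526 to 10321 detected genes, with a median of 5668. Median counts per qNSC1 cell were 635682, 916575 and 866316 in pA, pB and pE, but 124481 in pC and 114539 in pD. Counts of the qNSC1 cells of a letter were summed, giving 8737584, 9431183, 2383541, 6860051 and 18397517 counts in pA to pE, and sums of the other types were made the same way. Levels are CPM, counts scaled to an equal library total, after TMM scaling unless said otherwise. A lower level in a sum can come from fewer cells with the RNA or from less RNA per cell, which sums cannot tell apart. The labels, which may themselves rest on the transcriptomes, were set against lists of defining genes. In each of the 118 qNSC1 cells the 20 astrocyte genes together, at 28980 to 172900 CPM per cell, exceeded both the neuroblast and the oligodendrocyte genes. All qNSC2 cells met this rule too, so it does not tell qNSC1 from qNSC2. Among the other types, 3 neuroblast-labelled cells of pD and 1 striatal astrocyte of pE had the marker genes of another type on top. Leaving out the 3 neuroblasts changed the number of genes called against the mean of the other types to 2075, from the 2063 given below. Against neuroblasts the number changed to 2045 (1320 higher and 725 lower in qNSC1), from the 1846 given below.

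The 6 marker genes of qNSC1 were those of glutamate and neutral amino acid transport, an alarmin, a potassium channel and an acyl-CoA synthetase. Slc1a2 (chr2:102658659-102790784, plus strand, GRCm38), the main glutamate transporter of astrocytes, had 33700, 32250, 16520, 11180 and 27430 CPM in the qNSC1 sums of pA to pE. Slc1a3 (chr15:8634124-8710764, minus strand), the glutamate transporter GLAST, had 9091, 7526, 6425, 5699 and 8909 CPM. Acsl6 (chr11:54303798-54364756, plus strand), an acyl-CoA synthetase with a preference for polyunsaturated fatty acids, had 1630, 1455, 1437, 789 and 1443 CPM. For each of these 3 genes pD was the lowest letter. Slc1a4 (chr11:20302180-20332713, minus strand), which carries serine and other small neutral amino acids, had 512, 182.9, 384, 255.2 and 331.3 CPM. Il33 (chr19:29925114-29960718, plus strand), a nuclear cytokine of the IL-1 family, had 208.4, 114.1, 170.4, 29.85 and 128.2 CPM. Kcnj16 (chr11:110968033-111027968, plus strand), the inward rectifier subunit Kir5.1, had 133.8, 42.77, 73.47, 58.65 and 147.3 CPM. The levels of different genes are not per length and are not ranked against each other. Slc1a3 has 1 overlapping gene on its strand, so a share of its reads may belong to the neighbour.

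The promoters of 3 of these markers, and of Aass, which comes first among the named rises below, are shown because their transcripts were high in qNSC1 together. They are the 250 bases before a transcript start annotated in RefSeq (GRCm38.p6), read 5′ to 3′ on the strand of the gene: Slc1a2 at chr2:102706188-102706437 (plus), Slc1a3 at chr15:8710808-8711057 (minus), Slc1a4 at chr11:20332714-20332963 (minus) and Aass at chr6:23132987-23133236 (minus). Capitals mark a match to the NFI half-site TTGGC or its complement GCCAA, and to the Sox core ACAAT or its complement ATTGT. Both strands were searched and no matches overlapped. The Slc1a2 start used lies inside the gene span given above, which begins at earlier starts, and the windows of those starts were not used here.
Slc1a2: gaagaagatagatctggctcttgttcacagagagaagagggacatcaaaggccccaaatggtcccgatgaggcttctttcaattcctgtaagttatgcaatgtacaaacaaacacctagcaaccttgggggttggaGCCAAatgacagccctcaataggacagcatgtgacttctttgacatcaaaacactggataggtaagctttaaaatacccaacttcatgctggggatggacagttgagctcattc
Slc1a3: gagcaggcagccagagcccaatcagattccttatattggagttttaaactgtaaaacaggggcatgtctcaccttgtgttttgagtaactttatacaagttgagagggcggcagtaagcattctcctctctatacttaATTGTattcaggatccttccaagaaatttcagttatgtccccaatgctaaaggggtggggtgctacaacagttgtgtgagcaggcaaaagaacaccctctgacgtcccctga
Slc1a4: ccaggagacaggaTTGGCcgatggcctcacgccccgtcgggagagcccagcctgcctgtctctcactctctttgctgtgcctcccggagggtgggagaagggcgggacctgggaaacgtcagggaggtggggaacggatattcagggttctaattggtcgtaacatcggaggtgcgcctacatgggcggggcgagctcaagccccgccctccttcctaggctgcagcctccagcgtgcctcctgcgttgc
Aass: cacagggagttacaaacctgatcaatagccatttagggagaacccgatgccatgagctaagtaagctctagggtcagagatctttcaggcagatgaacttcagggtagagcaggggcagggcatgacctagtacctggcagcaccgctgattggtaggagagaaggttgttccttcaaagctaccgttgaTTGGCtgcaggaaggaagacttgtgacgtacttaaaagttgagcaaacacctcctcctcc
Slc1a2, Slc1a4 and Aass each held 1 NFI half-site and Slc1a3 held 1 Sox core. Among 32851 promoter windows of the same length, 41.5% held an NFI half-site and 27.7% a Sox core. A match of either kind is thus common and is a description of these letters only. Slc1a2 and Slc1a3 were poor in CpG, with 1 and 2 CpG in 250 bases and 44.8% G and C each, while Slc1a4 had 16 CpG and 64.8% G and C; the median window held 6 CpG.

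Against the mean of the 5 other types of the niche, each weighted equally on the log2 scale, all 6 markers were higher in qNSC1 by edgeR's quasi-likelihood test with Benjamini-Hochberg adjustment. Since the cell type labels may themselves rest on the transcriptomes, p-values between types describe how far the labelled types stand apart. Kcnj16 averaged 91.2 ± 46.6 CPM in qNSC1 (SD, n = 5 letters) against 0.283 ± 0.309 CPM in the other types (SD, n = 17 sums), a log2 fold change of 8.39 (SE 0.65, adjusted p = 1.62e-08). Slc1a4 averaged 333.1 ± 125.8 CPM in qNSC1 against 21.0 ± 18.2 CPM (log2 fold change 5.54, SE 0.40, adjusted p = 6.16e-09). Acsl6 averaged 1351 ± 324.2 CPM in qNSC1 against 137.5 ± 202.8 CPM (5.70, SE 0.40, adjusted p = 6.16e-09). Each of these 3 genes was higher in qNSC1 in 5 of 5 letters, and no qNSC1 sum overlapped a sum of another type. Slc1a2 (log2 fold change 4.88, SE 0.41, adjusted p = 5.05e-08) and Slc1a3 (4.17, SE 0.35, adjusted p = 5.53e-08) were also higher in 5 of 5 letters. Il33 differed: its log2 fold change was 7.30 (SE 0.68, adjusted p = 1.09e-06), yet its arithmetic mean was 130.2 ± 67.2 CPM in qNSC1 against 248.3 ± 560.2 CPM in the other types. Oligodendrocytes held 1630, 1486 and 1098 CPM of Il33, and the remaining types held 0 to 2.57 CPM.

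**Figure D1:**
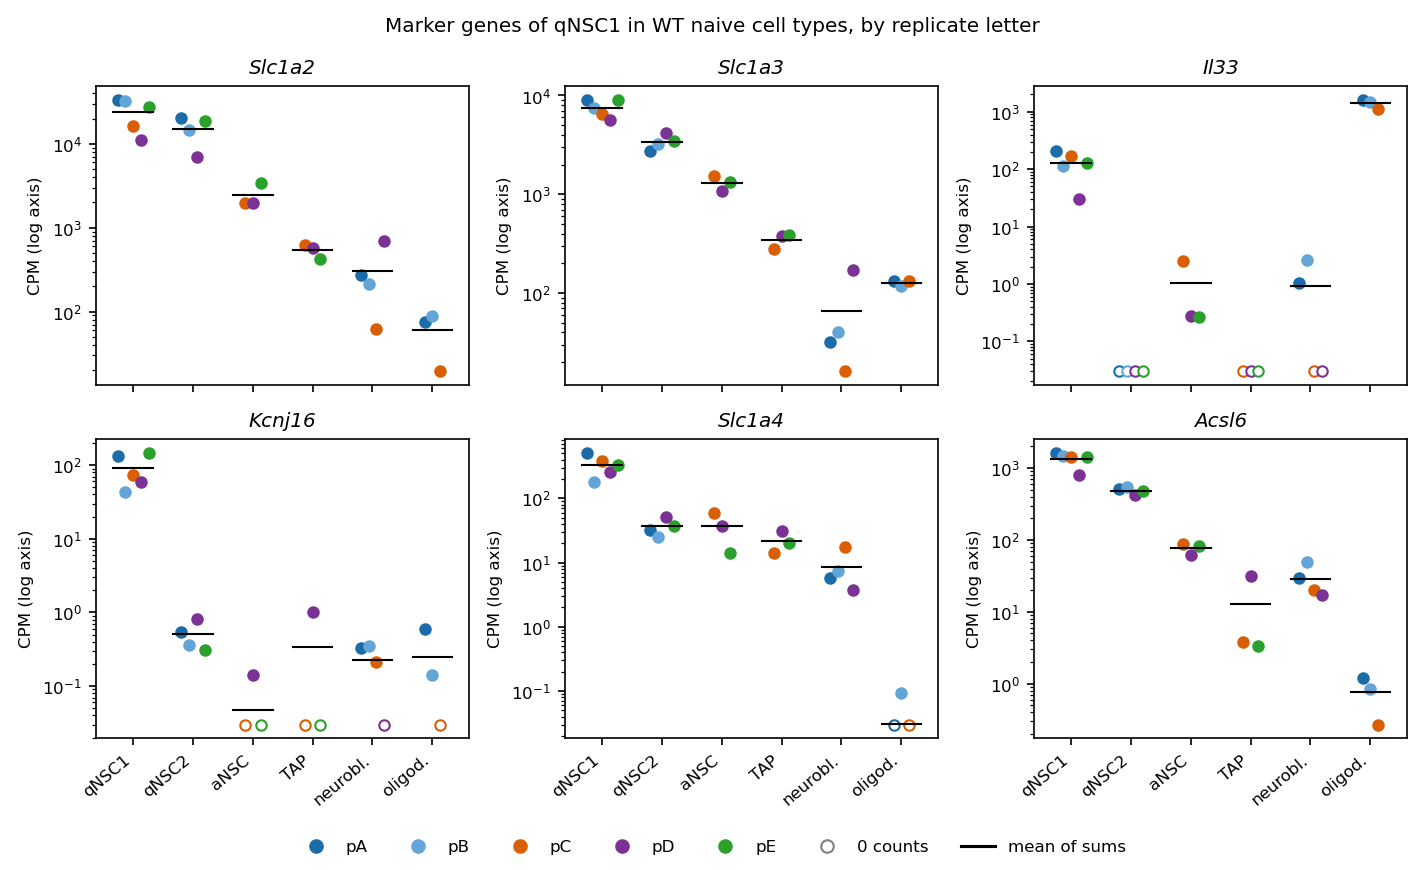
CPM (log axis) of the 6 marker genes in each sum of cells, with 1 point per replicate letter and a line at the mean of a type; open points at the bottom had 0 counts. Slc1a2 and Slc1a3 step down from qNSC1 through qNSC2 and aNSC to TAP, while Il33, Kcnj16 and Slc1a4 are set apart from qNSC2 already, and Il33 is highest in oligodendrocytes.

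Of 14915 genes tested, 2063 (13.8%) were called (adjusted p below 0.05) between qNSC1 and the mean of the other types, 1776 (11.9%) higher and 287 (1.92%) lower in qNSC1. With the letter as a block the counts were 2118 higher and 745 lower, and DESeq2 gave 1619 and 821, so the share of lower genes depended on the fit. Without pC, 1351 genes were called. Among called genes with at least 50 CPM on average in qNSC1 and the same direction in every letter, the largest rise was in Aass (chr6:23072173-23132986, minus strand), the entry enzyme of lysine breakdown. Aass had 104.9, 64.21, 54.25, 28.8 and 61.53 CPM in qNSC1, against a mean of 0.0818 ± 0.248 CPM in the other types (log2 fold change 10.22, SE 0.95, adjusted p = 6.7e-07). Slc39a12, a zinc transporter, had 758.9, 560, 222.1, 31.6 and 730.8 CPM in qNSC1 against 11.3 CPM (log2 fold change 9.64, adjusted p = 1.95e-07). Hapln1, a link protein of the extracellular matrix, had 196.6, 337.9, 64.93, 17.46 and 272.5 CPM in qNSC1 against 5.75 CPM (9.11, adjusted p = 2e-07). In all 3 genes pD was the lowest letter, and every qNSC1 letter was above the mean of the other types. The remaining genes of the 8 largest rises were Atp13a4, a P-type ATPase (9.84), Etnppl, a phosphoethanolamine lyase of astrocytes (9.53), Hsd11b1, which regenerates active glucocorticoid (9.53), Fam163a (9.21) and Gcnt4, a glycosyltransferase (9.17).

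The genes with the largest falls among called genes with at least 50 CPM on average in the other types, lower in every letter, were nearly silent in qNSC1. Gng2, a G protein gamma subunit, had 0.807, 1.47, 0.427, 2.79 and 0.908 CPM in qNSC1, against 208.9 ± 304.7 CPM in the other types (log2 fold change -5.19, SE 0.75, adjusted p = 3.53e-05). Dscaml1, a cell adhesion protein of neurons, had 0.231, 0.315, 0, 2.97 and 0 CPM in qNSC1, against 79.2 ± 63.4 CPM (-6.60, SE 1.13, adjusted p = 0.000268). Mycn, a growth-promoting transcription factor, had 0.346, 0.526, 0, 4.19 and 0.284 CPM in qNSC1, against 73.36 CPM (-5.06, SE 0.99, adjusted p = 0.00103). For all 3 the highest qNSC1 value was that of pD. B3gnt5 (-5.99), Add2 (-5.63), Pak7 (-5.48), Zfp536 (-5.24) and Tmeff1 (-4.96) completed the 8 largest falls by this rule. B3gnt5 was not called without pB and Pak7 was not called without pD.

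Genes of astrocyte function were higher in qNSC1 as a whole. Some lists below include qNSC1 markers and so do not stand apart from them. The uptake list holds Slc1a2, Slc1a3 and Slc1a4, the ion balance list Kcnj16 and the fatty acid list Acsl6. All 20 listed astrocyte genes were called higher against the mean of the other types, with a median log2 fold change of 5.48, where the median of all tested genes was 0.25. Cst3, a secreted protease inhibitor, averaged 21600 ± 21660 CPM in qNSC1 against 3759 ± 8334 CPM (log2 fold change 3.92, adjusted p = 0.000488). Apoe, the lipid carrier, averaged 14390 ± 12200 CPM in qNSC1 against 3029 ± 5327 CPM (3.42, adjusted p = 0.00349), and its spread came largely from pD, at 35420 CPM. Clu, an apolipoprotein and chaperone, rose by 6.66. All 11 genes of amino acid and transmitter uptake were called higher, with a median of 4.17, among them Glul, which makes glutamine from glutamate (2436 ± 986.6 CPM in qNSC1 against 731.3 ± 800.8 CPM; 2.64, adjusted p = 1.08e-05).

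Of 12 genes of potassium, water and ion balance, 11 were called higher, with a median of 6.13, and Clcn2, a chloride channel, was not (0.58). Aqp4, the astrocyte water channel, averaged 1597 ± 1067 CPM in qNSC1 against 35.07 ± 91.6 CPM (log2 fold change 8.34, SE 0.93, adjusted p = 1.46e-06). Gja1, which codes for connexin 43, averaged 5012 ± 3237 CPM in qNSC1 against 448.7 ± 824.8 CPM (6.42, adjusted p = 1.69e-07). The bicarbonate cotransporter Slc4a4 (6.86) rose likewise. All 3 were higher in qNSC1 in 5 of 5 letters.

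Energy metabolism was higher in part. Of 18 genes of fatty acid use, 11 were called higher (median 1.70), including Acsl3 (3.27), the fatty acid transporter Slc27a1 (3.13) and Acsbg1 (4.96). Of 16 glycolysis genes, 9 were called higher (median 1.57). Aldoc, the brain isoform of aldolase, averaged 4602 ± 1447 CPM in qNSC1 against 559.8 ± 970.9 CPM (log2 fold change 5.36, adjusted p = 8.68e-05). Ldhb rose by 1.57 (adjusted p = 0.0355, lost without any 1 of pA, pB, pC or pE), while Gapdh (0.84, adjusted p = 0.163, and 0.00412 with the letter as a block) and Pkm (0.06) were not called. Of 16 genes of cholesterol synthesis, 1 was called, Msmo1 (2.87), and 5 with the letter as a block.

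Among signalling genes, 8 of 14 Notch pathway genes were called higher and 1 lower (median 2.63). The receptors Notch1 (1.38, adjusted p = 0.0104, not called without pB or pC) and Notch2 (2.47, adjusted p = 0.00211) and the target Hes5 (4.30, adjusted p = 0.00951, not called without pC) were higher. The ligand Jag1 was not called (43.87 ± 55.0 CPM in qNSC1 against 106.0 ± 213.2 CPM; 0.50, adjusted p = 0.706), and the ligand Dll1 was the member called lower (-7.66, adjusted p = 0.00242). Of 10 BMP pathway and Id genes, 5 were called higher (median 2.11), the receptor Bmpr1b (6.80), Smad9 (2.54), Id4 (2.80), Id2 (4.43) and Id3 (3.64, adjusted p = 0.0141, not called without pC or pE). Id3 was uneven: 193, 111, 290, 947 and 177 CPM in qNSC1. Of 14 genes listed for quiescent stem cells, 9 were called higher (median 3.07), among them the proteoglycan Cspg5 (3.91) and the metallothionein Mt1 (2.85, not called without pC), while Mt2 (2.04, adjusted p = 0.161) and Sox2 (1.04, adjusted p = 0.21) were not called. Of 12 tested of 14 forebrain patterning genes, 5 were called higher (Emx2, Gli2, Gli3, Lhx2 and Zic1; median 2.36), including Gli3, a mediator of Hedgehog signalling (169.5 ± 116.6 CPM in qNSC1 against 47.4 ± 81.4 CPM; 5.60, adjusted p = 6.38e-06), and Pax6 was not (1.29, adjusted p = 0.0735).

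By the main fit, which held no letter term, a minority of the genes of growth and division was called lower. More were called lower with the letter as a block. Of 20 proliferation genes, 5 were called lower in qNSC1 (Bub1, Mcm4, Mcm6, Mcm7 and Pcna; median -1.98), and 11 with the letter as a block. Pcna, the clamp of replication, had 40.6, 30.7, 32, 36 and 35.9 CPM in qNSC1, against 194.7 ± 194.2 CPM in the other types (log2 fold change -2.12, SE 0.53, adjusted p = 0.00813). Mki67 had 0.692, 0.315, 0.427, 62.7 and 0.738 CPM in qNSC1, so that pD alone held most of it, against 352.9 ± 502.7 CPM (-2.53, adjusted p = 0.275, and 0.0163 with the block). Of 30 ribosomal protein genes, 6 were called lower (median -1.59), and 29 with the block. Of 15 genes of activated stem cells and TAP, 1 was called lower (median -1.39), Mycn, and 10 with the block. Of 17 genes of the DNA methylation machinery, 1 was called, the chromatin remodeller Hells (-1.93, adjusted p = 0.0458), while the methyltransferase Dnmt3a (150 ± 53.0 CPM in qNSC1 against 135.7 ± 72.8 CPM; 0.27) and the dioxygenase Tet2 (1.02) were not.

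Genes of other cell types were mostly scarce in the qNSC1 sums. The oligodendrocyte list summed to 230.2 to 688.5 CPM in qNSC1, against 81540 to 114600 CPM in oligodendrocytes, and the neuroblast list to 598.3 to 959.6 CPM in qNSC1, against 5331 to 17930 CPM in neuroblasts (before TMM scaling). None of 16 oligodendrocyte genes and 5 of 20 neuroblast genes (Cd24a, Dcx, Elavl3, Igfbpl1 and Sp8) were called lower against the mean of types, with Dcx not called without pB or pC; 1 neuroblast gene, the tubulin Tubb2b, was called higher (1.63, not called without pA, pB or pE). Of 8 microglia genes 5 were at 0 in every qNSC1 sum, and of 11 endothelial and pericyte genes 5 were at 0. A single member each was called higher from these lists, P2ry12 of microglia (3.33 ± 2.95 CPM in qNSC1 against 0.329 ± 0.930 CPM) and Pdgfrb of pericytes (107.3 ± 26.9 CPM in qNSC1 against 31.1 ± 56.2 CPM). Of 7 tested ependymal genes 3 were called higher, and Rarres2 alone with the block. Rarres2 and Mia were highest in pD, at 353.3 and 52.72 CPM. Of 6 tested of 8 oligodendrocyte precursor genes, Cspg4 (4.83) and C1ql1 (4.05, not called with the block or without any 1 letter) were higher, and none of 6 tested mature neuron genes was called.

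Genes of stress and inflammation did not share a direction. Of 11 tested of 16 reactive astrocyte genes, Serpina3n (5.70), the oncostatin receptor Osmr (8.12) and Cd44 (3.61) were called higher and Socs3, an inhibitor of cytokine signalling, lower (-5.69). Of 16 tested of 18 immediate early genes, which also respond to tissue dissociation, Arc was called lower (-4.37; list median -1.81), while Fos, at 3.11, 0, 3.84, 94.3 and 15.5 CPM in qNSC1 against 237.2 ± 313.3 CPM in the other types, was not (-3.16, adjusted p = 0.149). Of 13 tested of 16 interferon genes, B2m was called higher (2.67), and 3 genes with the letter as a block.

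**Figure D2:**
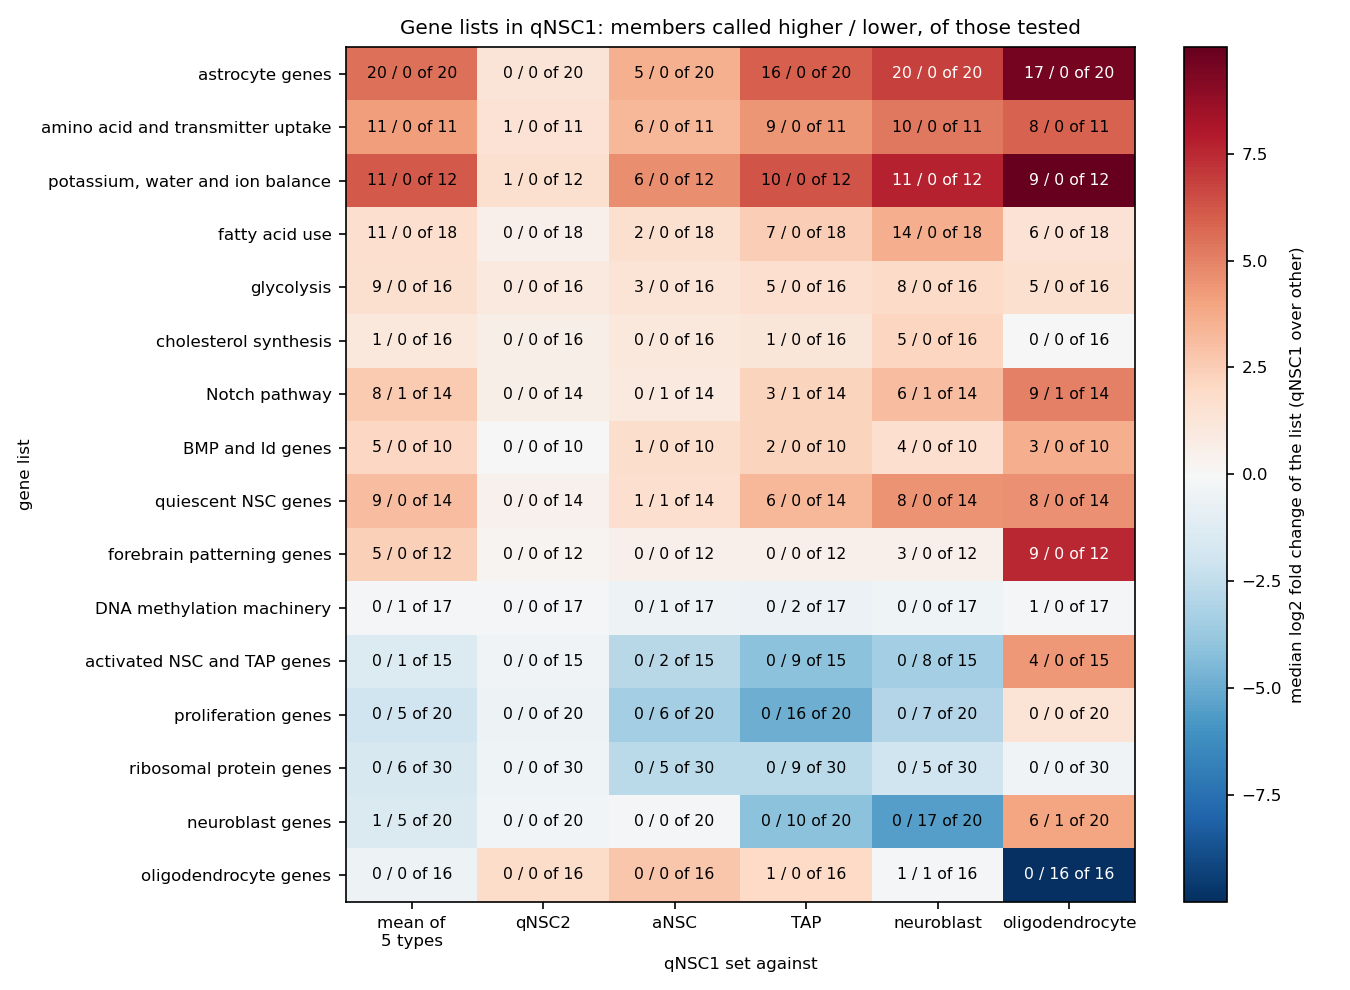
Each cell gives, for 1 gene list and 1 comparison, the members called higher and lower in qNSC1 of those tested, and its colour the median log2 fold change (qNSC1 over the other type). Astrocyte, uptake and ion lists are red in every column and palest against qNSC2, and the proliferation list is bluest against TAP.

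The fewest genes were called against qNSC2, the other quiescent state. Of 14915 genes, 12 (0.0805%) were called, 7 (0.0469%) higher and 5 (0.0335%) lower in qNSC1; 60 were called with the letter as a block, 44 higher and 16 lower. The count moved with single letters: 0 genes were called without pA or without pB, 1 without pC, 4 without pE and 25 without pD. Another scaling (RLE) moved the median of all genes from 0.11 to 0.00, and gave 8 higher and 8 lower. DESeq2 called 286. The genes lower in qNSC1 included a pair of receptor signalling genes. Gng2 was at 0.427 to 2.79 CPM in qNSC1, against 74.78, 176.8, 15.75 and 60.51 CPM in qNSC2 of pA, pB, pD and pE (log2 fold change -5.96, SE 0.82, adjusted p = 0.00242). Tshr, the thyrotropin receptor, had 0.346, 0.315, 0, 0 and 0.341 CPM in qNSC1, against 56.36, 129.3, 16.84 and 37.82 CPM in qNSC2 (-7.94, SE 1.36, adjusted p = 0.0384; it overlaps 1 gene on its strand). Tmem131l was at 3.42 to 11.1 CPM in qNSC1 against 29.2 to 124 CPM in qNSC2 (-3.23, adjusted p = 0.0482). No value of these genes in qNSC1 reached the lowest in qNSC2. Grb10 and Gjc1 were the other genes called lower.

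Among the genes higher in qNSC1 than in qNSC2, Eps8, an adaptor of receptor tyrosine kinase signalling that also binds actin, had 109.5, 212, 96.11, 40.85 and 116.8 CPM in qNSC1, against 0, 0.720, 0 and 0 CPM in qNSC2 (log2 fold change 9.37, SE 1.76, adjusted p = 0.0411; it overlaps 1 gene on its strand). Aass, at 28.8 to 104.9 CPM in qNSC1, had 0, 0.360, 0 and 0 CPM in qNSC2 (9.39, SE 1.70, adjusted p = 0.0411). Olig1, a transcription factor of the oligodendrocyte lineage, had 34, 4.31, 32.9, 19.7 and 22.2 CPM in qNSC1, against 0, 0, 0 and 0.154 CPM in qNSC2 (8.15, adjusted p = 0.0411). B3galt5 and 3 of the 6 markers, Il33, Kcnj16 and Slc1a4, were the remaining genes. Il33 was at 0 in all 4 qNSC2 sums, so it was at least 642-fold higher in qNSC1, taking 3 counts over the group as the floor here and below. The step in the other markers was smaller than the test could resolve: Slc1a2 had 20130, 14470, 6881 and 18480 CPM in qNSC2, below qNSC1 in 4 of 4 letters (0.69, SE 0.60, adjusted p = 0.881), and Slc1a3 (1.15, SE 0.53, adjusted p = 0.533) and Acsl6 (1.47, SE 0.59, adjusted p = 0.419) were likewise higher in 4 of 4 letters without being called.

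Few members of the lists were called against qNSC2. None of the 20 astrocyte genes was called, with 18 above 0 and a median of 1.27, and none of 16 glycolysis genes, with 16 above 0 and a median of 0.96. All 11 uptake genes (median 1.45) and all 12 ion balance genes (median 1.62) lay above 0, with 1 called in each, Slc1a4 and Kcnj16. Both called genes are qNSC1 markers, so these calls repeat those given above. Aqp4 had 2230, 1890, 700, 306 and 2860 CPM in qNSC1 against 60.2, 28.1, 81.2 and 378 CPM in qNSC2 (3.54, SE 1.36, adjusted p = 0.387). Gfap ran the other way, at 106, 80.8, 86.7, 19.4 and 50.7 CPM in qNSC1 against 129, 315, 349 and 1090 CPM in qNSC2 (-2.77, SE 0.93, adjusted p = 0.297), as did the filament gene Vim, at 19 to 34.6 CPM in qNSC1 against 133 to 310 CPM (-2.80, SE 0.66, adjusted p = 0.118). The types did not overlap in Gfap and Vim and overlapped in Aqp4; these 3 genes were named after their values were seen. Of 30 ribosomal protein genes 3 lay above 0 (median -0.42, and 0.05 without pD).

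Against activated stem cells, 309 genes (2.07%) were called, 174 (1.17%) higher and 135 (0.905%) lower in qNSC1. Activated cells had sums of 3 or more cells in pC, pD and pE only. The count moved with single letters: 0 genes were called without pC or without pE, 68 without pB, 112 without pA and 586 without pD. With the letter as a block 978 were called, 527 higher and 451 lower. All 6 markers were higher in qNSC1. Slc1a2 had 1992, 1967 and 3459 CPM in aNSC of pC, pD and pE, and no qNSC1 letter was below 11180 (3.29, adjusted p = 0.0263); Slc1a3 had 1529, 1079 and 1319 CPM in aNSC (2.52, adjusted p = 0.037). Glul, at 813 to 3250 CPM in qNSC1, had 300, 139 and 250 CPM in aNSC (3.41, SE 0.65, adjusted p = 0.00904). Slc7a10, a transporter of serine and glycine, had 524, 479, 403, 226 and 754 CPM in qNSC1 against 0.637, 0.706 and 1.59 CPM in aNSC (8.88, SE 1.33, adjusted p = 0.00345). Of the lists, 5 of 20 astrocyte genes were called higher (Aqp4, Atp1b2, Gja1, Glul and Slc4a4; median 3.53, 13 with the block), 6 of 11 uptake genes (3.29), 6 of 12 ion balance genes (4.68), 2 of 18 fatty acid genes (1.60, 4 with the block) and 3 of 16 glycolysis genes (1.38, 6 with the block).

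A part of the genes of growth and division was called lower in qNSC1 than in aNSC. Mycn had 306.6, 19.49 and 336 CPM in aNSC, against at most 4.19 CPM in qNSC1 (-7.66, SE 1.20, adjusted p = 0.00345). Gjc1, a connexin, had 0.538 CPM on average in qNSC1 against 72.02, 37.71 and 68.04 CPM in aNSC (-6.91, adjusted p = 0.00426), and Draxin, a secreted guidance protein, had 100.7, 117.7 and 127.1 CPM in aNSC against 5.41 CPM or less in qNSC1 (-6.52, adjusted p = 0.0102). Of 20 proliferation genes 6 were called lower (median -3.41, none above 0, 8 with the block), among them the helicase subunit Mcm7, at 1.15 to 12.2 CPM in qNSC1 against 88.6, 184 and 711 CPM in aNSC (-5.75, SE 0.82, adjusted p = 0.00345), and Pcna, at 30.7 to 40.6 CPM in qNSC1 against 151, 202 and 598 CPM (-3.18, adjusted p = 0.0144). Of 15 activated stem cell genes 2 were called lower, Mycn and Sox11 (median -2.81, none above 0, 8 with the block). Egfr, the receptor by which activated cells are known, was at 88.8 to 346 CPM in qNSC1 against 400, 289 and 1540 CPM in aNSC (-1.72, SE 0.82, adjusted p = 0.268). Of 30 ribosomal protein genes 5 were called lower, Rpl4, Rpl7, Rpl13, Rps4x and Rps6 (median -2.67), and 29 with the block. With pC and pD alone, 0 genes were called by edgeR, and 1247 of 14896 had an unadjusted p below 0.05.

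More genes were called against the later stages. Against TAP, 1385 genes (9.29%) were called, 793 (5.32%) higher and 592 (3.97%) lower in qNSC1, and 2283 with the letter as a block, 1288 higher and 995 lower; 783 were called without pA, 644 without pB, 201 without pC and 321 without pE. Gjb6, which codes for connexin 30, had 445.9, 346.3, 313.5, 131.8 and 362.2 CPM in qNSC1 and 0 in all TAP sums, at least 1444-fold higher (adjusted p = 0.0038, by edgeR), and Fgf1 had 173, 102.5, 106.4, 240.6 and 154.2 CPM against 0 (at least 701-fold higher, adjusted p = 4.38e-05). Hapln1 (at least 803-fold) and Atp13a4 (at least 733-fold) were also at 0 in TAP. The largest falls were in Ect2, a cytokinesis factor (-11.22, not called without pE), the transcription factor Sp8 (-11.08), the Notch ligand Dll1 (-10.71, not called without pE) and Grb10 (-10.57). Of 20 proliferation genes 16 were called lower in qNSC1 (median -4.92), of 15 activated stem cell and TAP genes 9 (median -4.07), and of 20 neuroblast genes 10 (median -4.13). Of the ribosomal protein genes 9 of 30 were called lower (median -2.72), and 29 with the block. Astrocyte genes were higher in 16 of 20 (median 6.0), fatty acid genes in 7 of 18 (12 with the block) and glycolysis genes in 5 of 16 (8 with the block).

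Against neuroblasts, 1846 genes (12.4%) were called, 1148 (7.7%) higher and 698 (4.68%) lower in qNSC1, and 2946 with the letter as a block, 1679 higher and 1267 lower; 905 were called without pA, 840 without pB and 751 without pC. Slc13a5, a citrate transporter, had 135, 116.4, 141.4, 122.2 and 82.53 CPM in qNSC1 and 0 in all neuroblast sums (at least 1837-fold higher, adjusted p = 0.000471 by edgeR). Etnppl (at least 1669-fold), the secreted chitinase-like protein Chil1 (at least 1568-fold) and Csgalnact1, which starts chondroitin sulfate chains (at least 1490-fold), were the next largest. The neuronal genes Erc2 (at least 796-fold lower, adjusted p = 0.000935 by edgeR) and Sez6l (at least 732-fold lower, adjusted p = 0.00181 by edgeR) were at 0 in all qNSC1 sums. Of 20 neuroblast genes 17 were called lower in qNSC1 (median -5.52). All 20 astrocyte genes (median 6.81), 14 of 18 fatty acid genes (median 3.66) and 5 of 16 cholesterol genes (median 2.14, 9 with the block) were called higher, and 5 of 30 ribosomal protein genes lower (29 with the block).

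Against oligodendrocytes, another glial type, 1636 genes (11%) were called, 981 (6.58%) higher and 655 (4.39%) lower in qNSC1, and 2190 with the letter as a block, 1208 higher and 982 lower; 885 were called without pA, 847 without pB and 800 without pC. Slc4a4 had 2288, 1553, 1441, 1349 and 2597 CPM in qNSC1 against 0.201, 0.187 and 0 CPM (log2 fold change 13.42, adjusted p = 6.13e-05). The NMDA receptor subunit Grin2c was at 96.79 to 1250 CPM in qNSC1 and 0 in oligodendrocytes (at least 4970-fold higher, adjusted p = 0.00601 by edgeR, not called without pC), and the claudin Cldn10 rose by 14.11. Bfsp2, Pla2g4a and Rassf4, at least 1308-fold, 1021-fold and 987-fold lower, were at 0 in all qNSC1 sums, and Smco3 was lower by a log2 fold change of -11.98. Il33 was the marker called lower in qNSC1 (-3.43, SE 0.86, adjusted p = 0.0136, not called without pA or without pB). All 16 oligodendrocyte genes were called lower (median -9.99), and 17 of 20 astrocyte genes (median 9.54), 9 of 14 Notch genes (median 5.04) and 9 of 12 patterning genes (median 7.54) higher. None of 30 ribosomal protein genes was called (median -0.31), and 21 were lower with the block.

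Striatal astrocytes, the mature astrocytes of the neighbouring tissue, came from pE alone, so 20 qNSC1 cells were set against them in that letter without a test. With the 1 striatal cell of neuroblast character left out, 11 cells with 8856640 counts remained, against 18397517 counts in qNSC1. Levels here are CPM before TMM scaling. Of 5100 genes measured, 37 (0.725%) were over 4-fold higher and 64 (1.25%) over 4-fold lower in qNSC1; with all 12 striatal cells they were 32 (0.612%) and 106 (2.03%) of 5230. The marker genes were close in both: Slc1a2 had 26270 CPM in qNSC1 against 20660 CPM in striatal astrocytes, Slc1a3 had 8531 against 6064, Il33 had 122.7 against 111, Kcnj16 had 141.1 against 93.04 and Acsl6 had 1381 against 1470. Slc1a4 had 317.2 CPM in qNSC1 against 197.7 CPM. The 20 astrocyte genes had a median log2 difference of 0.38 and the uptake genes of 0.49, where the median of all genes was -0.08.

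The largest differences between qNSC1 and striatal astrocytes rested in part on single cells. Fgf2, a mitogen of stem cells, had 58.98 CPM in qNSC1 against 1.92 CPM in striatal astrocytes. It was detected in 55% of these qNSC1 cells, and 41.94% of the qNSC1 counts came from 1 cell. The striatal cells held 17 counts, 88.24% of them from 1 cell. Nnat, an imprinted gene active in neural development, had 170.3 CPM in qNSC1 against 15.36 CPM, Cmya5 had 66.59 against 3.16, and Pygo1, a Wnt cofactor, had 76.7 against 5.53. On the other side, Mx2 (0 CPM in qNSC1 against 70.23 CPM) and Rtp4 (2.61 CPM in qNSC1 against 81.18 CPM), both interferon-induced, drew 66.08% and 82.75% of the striatal counts from 1 cell. Of 8 interferon genes measured, 4 were over 4-fold lower in qNSC1. Of 6 patterning genes none was above 0, as with Pax6 (79.68 CPM in qNSC1 against 183.6 CPM).

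Every qNSC1 cell carried the glutamate transporters, and a part of the cells the scarcer markers. Slc1a2 was detected in 100% of the 118 cells, at 2233 to 60700 CPM per cell, and Slc1a3 in 100%, at 628 to 14310 CPM. Acsl6 was detected in 97.46% of qNSC1 cells, Slc1a4 in 83.05%, Il33 in 53.39%, Kcnj16 in 40.68% and Aass in 33.9%. To make depths comparable, cells were thinned to 20000 counts, which left 117 qNSC1 cells: Il33 was then seen in 41.03% of qNSC1 cells, against 0 of 50 qNSC2 cells (which allows a share of up to 6.0%), 1.28% of aNSC, 5.06% of neuroblasts, 82.76% of oligodendrocytes and 58.33% of striatal astrocytes. Kcnj16 was seen in 31.62% of thinned qNSC1 cells against 0 of 50 qNSC2 cells (6 of 50 before thinning) and 33.33% of striatal astrocytes. Aass was seen in 24.79% of thinned qNSC1 cells against 0 of 50 qNSC2 cells and 25.0% of striatal astrocytes. All 3 genes were present in part of the qNSC1 cells and of the striatal astrocytes. Mki67 was seen in 8.55% of thinned qNSC1 cells against 20% of qNSC2, 41.03% of aNSC and 75.0% of TAP, and Top2a in 18.8% of qNSC1 cells.

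The scarcer markers also differed by letter. Il33 was detected in 76.92%, 90.91%, 82.35%, 24.56% and 75.0% of qNSC1 cells of pA to pE, and Kcnj16 in 53.85%, 45.45%, 52.94%, 24.56% and 65.0%, with pD lowest in both. Median counts per cell were close in pC and pD, as given above, and the part of depth in these shares was not tested. The letter pD stood apart in other ways: the ribosomal protein genes summed to 1335, 1608, 5973, 13580 and 1970 CPM in qNSC1 of pA to pE, the activated stem cell genes to 728, 612.2, 1038, 4865 and 724.1 CPM, and the astrocyte genes to 54010, 48140, 89450, 106700 and 56110 CPM. In pC each of these sums lay between that of pD and those of pA, pB and pE, so pD did not stand alone in them. Genes per cell at 20000 counts had medians of 4454, 4360, 4306, 2188 and 4466. Median genes per cell were also lowest in pD for qNSC2, at 2225.5, and for aNSC, at 2530. In every letter that held both, the ribosomal sum of qNSC1 lay below that of qNSC2 and of aNSC. All pD cells of this group came from the GLAST gate, which no other letter used, so the gate and the letter cannot be told apart.

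**Figure D3:**
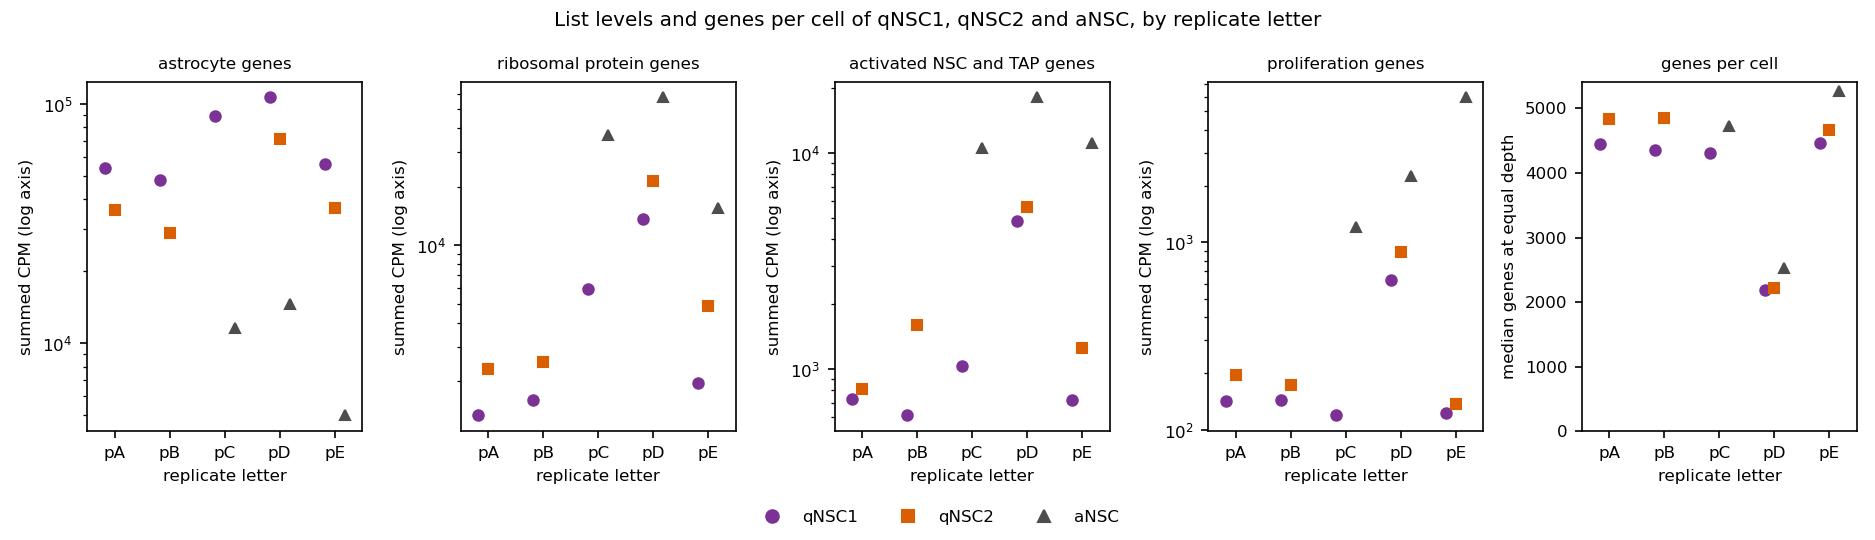
Summed CPM (log axes, before TMM scaling) of 4 gene lists, and median genes per cell at 20000 counts (linear axis), for qNSC1, qNSC2 and aNSC in each letter. In pD, qNSC1 and qNSC2 are at their highest in ribosomal, activated and proliferation genes and all 3 types are at their lowest in genes per cell; qNSC1 lies below aNSC in the ribosomal, activated and proliferation lists in each shared letter.

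Sort gates rest on antibody staining, and not on the transcript counts, although genes of the stained antigens such as Slc1a3 and Prom1 are among those counted. In the letters that used both, qNSC1 cells made up 54.55% of ASTRO cells in pA (6 of 11; 95% exact binomial interval 23.38 to 83.25), 28.57% in pB (4 of 14; 8.389 to 58.1) and 17.39% in pC (4 of 23; 4.951 to 38.78). They made up 77.78% of NSC cells in pA (7 of 9; 39.99 to 97.19), 46.67% in pB (7 of 15; 21.27 to 73.41) and 76.47% in pC (13 of 17; 50.1 to 93.19). The share was lower in ASTRO in all 3 letters; no test was made over 3 letters, and the intervals of pA and pB overlap. In pE both NSC-B and NSC held 57.14%, and GLAST in pD held 24.57% of 232 cells. No qNSC1 cell was among the 19, 21 and 27 cells of the NB gate, which allows a share of up to 15.79%, 14.29% and 11.11%, nor in the OLIGO, STRASTRO or STRASTRO-B gates. These intervals and limits cover counting error only, and a share depends on how the gate was drawn.

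Within qNSC1, no difference in expression was detected between the gates ASTRO and NSC. Of 11603 genes in 6 sums (pA, pB and pC), edgeR called 0 (0.0%), with 220 (1.896%) at an unadjusted p below 0.05. That was under the nominal share of 0.05 where no gene differs. Limma also called 0, and DESeq2 called 14, of which 5 were higher and 9 lower in ASTRO. Slc1a2 had 28130, 21520 and 16230 CPM in ASTRO against 38230, 39500 and 16220 CPM in NSC (before TMM scaling; log2 fold change -0.56, SE 0.41, adjusted p = 1.0). Il33 had 299.8, 95.35 and 231.8 CPM in ASTRO against 122.8, 127.7 and 148 CPM in NSC (0.60, SE 0.57), so the gates overlapped. Kcnj16 had 105.6, 43.02 and 18.11 CPM in ASTRO against 157.3, 43.24 and 88.45 CPM in NSC (-0.84, SE 0.81). With SEs of 0.41 to 0.81 on the log2 scale, differences of that size were not detectable here. The stem cell antigen gene Prom1 (-0.30, SE 0.83) and Cd9 (0.31, SE 0.52) did not differ detectably either, although sorting acts on proteins and not on these transcripts.

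Some lists leaned to one side between the gates without a call. All 12 ion balance genes lay below 0 in ASTRO over NSC (median -0.31), as did 17 of 20 astrocyte genes (median -0.26), against a median of -0.03 for all genes, of which 5607 of 11603 lay above 0; none was called. Neuroblast genes had a median of 0.74 with 6 of 10 above 0. The gene of lowest p on the higher side was Rffl, a ubiquitin ligase, with 52.95 ± 40.2 CPM in ASTRO against 1.46 ± 1.19 CPM in NSC (5.17, SE 1.33, unadjusted edgeR p = 0.00294), and on the lower side Brwd3 (-5.54, unadjusted edgeR p = 0.000476); neither passed edgeR's adjustment, and both were among the 14 genes called by DESeq2.

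**Figure D4:**
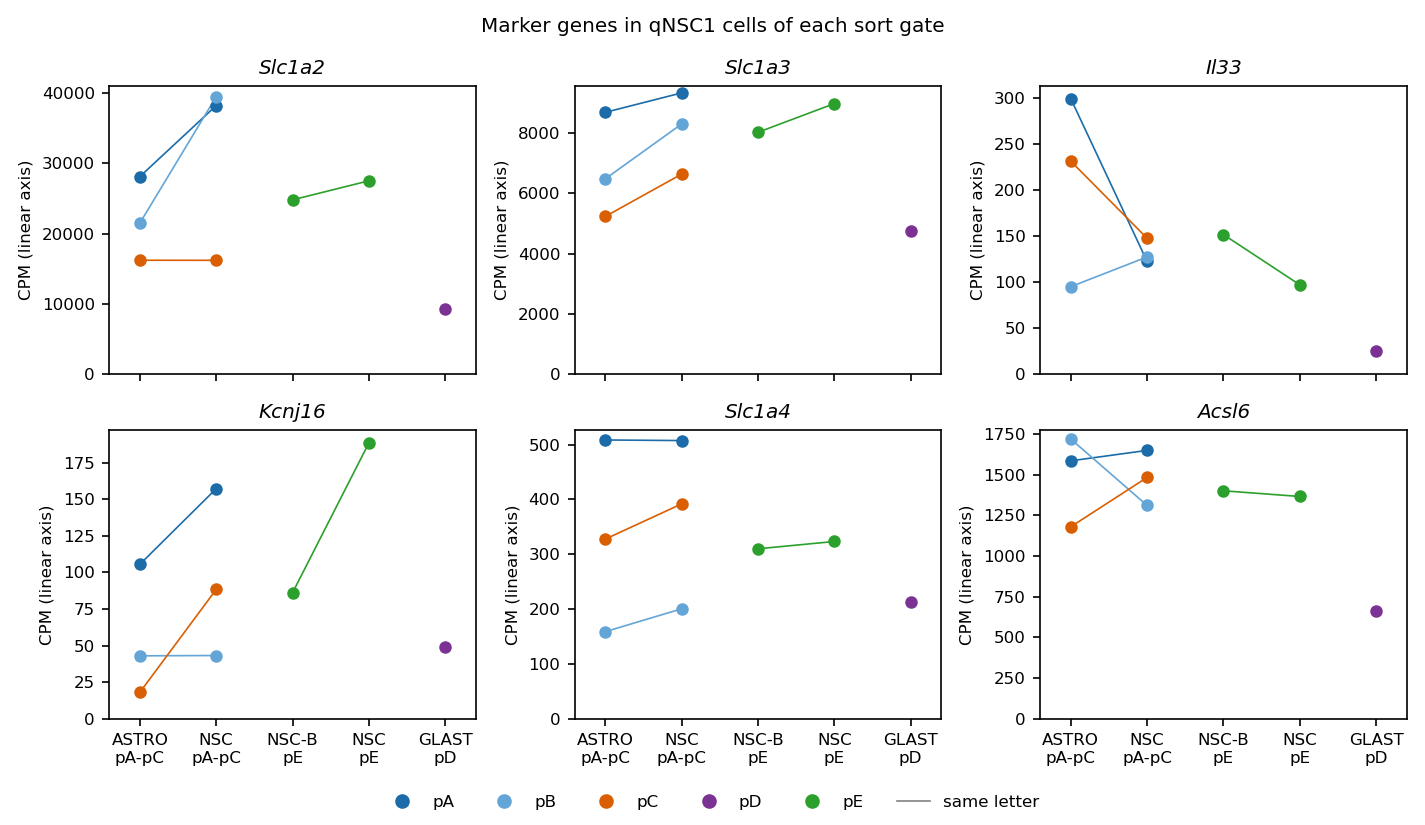
CPM before TMM scaling (linear axes from 0) of the 6 marker genes in qNSC1 sums of each sort gate; lines join the gates of 1 letter, ASTRO left of NSC in pA to pC and NSC-B left of NSC in pE, with GLAST of pD on its own. Lines run in both directions for Il33 and Acsl6, and the GLAST point is the lowest for Slc1a2, Slc1a3, Il33 and Acsl6.

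Likeness between the qNSC1 sums is given as a description. Over 14915 genes, Pearson's r of log2(CPM + 1) was 0.781 to 0.864 between 2 gates of the same letter (4 pairs), against 0.754 to 0.846 for the same gate in 2 letters of like depth (4 pairs), where pA, pB and pE counted as deep and pC and pD as shallow. For 2 gates in 2 letters of like depth it was 0.725 to 0.838 (10 pairs), a range that overlapped that of the same gate. It was 0.686 to 0.794 for the same gate in a deep and a shallow letter (5 pairs). Where gate, letter and depth all differed it was 0.633 to 0.780 (13 pairs). These ranges are across genes and describe sums that share mice or depth. The deep and shallow letters differed in more than depth. Sox2 had 104.1 to 250.4 CPM (before TMM scaling) in the sums of pA, pB and pE, and 502.9 to 585 CPM in those of pC and pD. The part of depth in these ranges was not tested.

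The gate NSC-B was used in pE only, so its 8 qNSC1 cells (8538692 counts) were set against the 12 NSC cells (9858825 counts) of the same letter without a test. Of 5129 genes measured, 118 (2.3%) were over 4-fold higher and 116 (2.26%) over 4-fold lower in NSC-B, and the median of all genes was 0.03. None of 20 astrocyte genes was past 4-fold, while 2 of 6 activated stem cell genes were over 4-fold higher and 2 of 3 immediate early genes over 4-fold lower in NSC-B. On the higher side, Gdpd1 had 104.9 CPM in NSC-B against 1.32 CPM in NSC, with 39.84% of the NSC-B counts from 1 cell. Zfp944 had 0.469 CPM in NSC-B against 81.65 CPM in NSC, with 57.27% of the NSC counts from 1 cell. Olfm1, a secreted neuronal protein, had 0 CPM in NSC-B against 52.44 CPM in NSC, with 38.49% of the NSC counts from 1 cell. Kcnj16 had 86.2 CPM in NSC-B against 188.6 CPM in NSC, with 90.22% of the NSC-B counts from 1 cell.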

How the data were processed

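RNA was measured cell by cell with Smart-seq3. The deposited table holds whole-number counts per gene and cell; per the submitters' processing notes the authors used STAR, featureCounts and the build GRCm38 (mm10), with versions and strand setting not given in the sources used here. Cells were joined to labels by name: 1981 of 2584 table cells matched, the 603 others were not used, and 2 of 487 labelled WT naive cells of pA to pE were not in the table. Counts were summed per cell type and letter, with at least 3 cells per sum (22 sums), and fitted in edgeR 4.0.16 (TMM, filterByExpr, quasi-likelihood F test, Benjamini-Hochberg over 14915 genes, threshold 0.05, R 4.3.3). ASTRO and NSC sums were fitted alone. Both fits were tested on simulated counts, where the small gate fit missed most 4-fold changes. Same-letter sums deviated together (median correlation of 0.282 over 17 pairs, against -0.106 between letters). The ranges overlapped, at 0.149 to 0.527 in a letter and -0.38 to 0.334 between letters. Pairs of different deep letters were positive too, so these values do not tell a shared letter from like depth or other traits that deep letters share. The design text says that a letter is 1 replicate. Alternatives were the letter as a block, RLE factors, DESeq2 1.42.0, limma 3.58.1 on equally weighted cells (pseudocount 1), no filter, sums of at least 5 cells, each letter left out and the deep or shallow letters alone; leaving out the cells that went against their label was chosen after seeing the data. Genes were named by rule: the 6 markers, the 8 largest rises and falls against the mean of types, the 4 largest against each type (at least 50 CPM and the same direction in every letter), and up to 4 of the highest members of each list; other names were chosen after their values were seen. A few genes that the rule names are not reported here. The groups, lists and members were chosen with earlier results of these data known. Single-letter comparisons used log2 of CPM plus 5, genes of at least 50 CPM in at least 1 group, and a 4-fold limit. Genes named there for their size also had a count in at least 50% of the cells of the higher group. The numbers of genes past 4-fold did not use that share. Overlapping genes on 1 strand may share reads.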

Additional observations from a re-analysis of the deposited data

Results flagged for a closer look

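In 16 of 74 qNSC1 groups of 5 letters (21.6%), 1 letter lay far from the other 4. The limit of the flag has a nominal rate of 1 in 20 for independent, normally spread values. The groups share the same 5 sums and several are near 0 CPM, so the share cannot be set against that rate. All values are CPM. Letter pD was the far one in 11 of the flagged groups. It was highest for Apoe (35420, next 14740), Id3 (947, next 290), Rarres2 (353.3, next 92.26), Mia (52.72, next 6.344), C1ql1 (35.61, next 1.73), Draxin (5.412), Mycn (4.19), Dscaml1 (2.968), Tmeff1 (2.793) and Zfp536 (1.397), and lowest for Acsl6 (789, next 1437). The remaining flags were of single letters at trace levels where the other letters held at most 0.05676 CPM: Add2 in pB (0.5255), Ect2 in pA (0.1154), Smco3 in pA (0.1154), Grb10 in pE (0.1703) and Sp8 in pE (0.05676). Letter pD was also the one sorted by GLAST, and the part of the gate in these values was not tested.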

How the results depend on the processing

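The number of genes called moved with the fit and with the letters used. The main fit held the type alone, without the letter. Sums of the types came from different letters, aNSC and TAP from pC to pE and oligodendrocytes from pA to pC. Differences between letters may thus enter its contrasts. With the letter as a block, 60 genes were called against qNSC2, 978 against aNSC, 2283 against TAP and 2946 against neuroblasts. DESeq2 called 286 against qNSC2, 1478 against aNSC, 2937 against TAP, 2877 against neuroblasts, 2495 against oligodendrocytes and 14 between the gates. Limma called 207 against qNSC2, 1186 against aNSC and 2423 against TAP. The deep letters pA, pB and pE alone gave 22 against qNSC2 and 547 against aNSC. The shallow letters pC and pD alone gave 486 against the mean of types, 197 against neuroblasts and 186 against oligodendrocytes. They gave 0 against qNSC2, aNSC and TAP. Of 14896 genes, 716 against qNSC2 and 2093 against TAP had an unadjusted edgeR p below 0.05. The nominal share at that threshold is 0.05 where no gene differs, and the 716 were near it. A fit of 2 types gave 574 and sums of at least 5 cells 119 against aNSC. Leaving out 1 letter gave 1351 to 2308 against the mean of types, 0 to 25 against qNSC2, 0 to 586 against aNSC, 201 to 1717 against TAP, 751 to 2177 against neuroblasts and 800 to 1950 against oligodendrocytes. Without 1 striatal cell, left out after seeing the data, the genes over 4-fold lower numbered 64. The mean of types split into 2118 higher and 745 lower with the block, 1619 and 821 with DESeq2 and 1426 and 729 with limma. Of 1858 values of named genes under alternatives, 1637 kept direction and side of the threshold, 216 lost the call, 5 gained it and 0 reversed; 73 of the lost calls fell to pC and pD alone. The 6 markers and the 8 largest rises against the mean of types lost no call under these alternatives. The cause was not tested.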
